A study of Capra hircus with 3 samples.

Results

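Decorin (DCN), lumican (LUM) and osteoglycin (OGN) are 3 of the 16739 genes in a single-cell RNA table of fetal goat skin. They were chosen as a small family of matrix proteoglycans that share expression in mesenchyme, and because DCN, at levels far above the others, was seen in cells of the oldest stage in which no UMI (unique molecular identifier, a counted transcript) of the collagen gene COL1A1 was found. Those values chose the genes, so the levels below are descriptions and no test was made of them. Dorsal skin of Northern Shaanxi White Cashmere Goat fetuses was sampled at embryonic days 60, 90 and 120 (E60, E90 and E120), when hair follicles are induced, form and differentiate. Each stage was 1 library on the 10x Genomics 3′ platform, in which the cells of 2 or more fetuses were mixed, and no spread between animals is known. Whole skin was taken at E60 and E90 and dissociated with collagenase IV and a pipette tip. At E120 follicles were picked out of collagenase-treated skin with forceps and dissociated with TrypLE, so E120 differs from the others in tissue and dissociation as well as age, and these cannot be told apart.

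Small leucine-rich proteoglycans are secreted proteins of the extracellular matrix with a curved core of leucine-rich repeats. Decorin carries a chondroitin or dermatan sulfate chain, binds type I collagen fibrils and limits their lateral growth, and it also binds growth factors and cell surface receptors. Lumican carries keratan sulfate in the cornea and is a less modified glycoprotein elsewhere, and it too sets fibril diameter and spacing. Osteoglycin, also called mimecan, is a family member first described in bone that is made by many connective tissues. In skin, fibroblasts of the dermis are the known source of all 3. In the RefSeq gene list of goat assembly ARS1.2, LUM and DCN are next to each other in a row with the family members EPYC and KERA, and OGN is followed by the members OMD, ASPN and ECM2.

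The table held 6849, 6931 and 6896 cells for E60, E90 and E120. Their recovered UMIs summed to 65049552, 30277663 and 93403291, with a median of 8579, 3714 and 13064 per cell. Levels are given as UMIs of a gene per 1000000 UMIs of the same cells (CPM). A 3′ library counts captured molecules whatever the gene's length, and ratios between genes are used here to compare cells, not as molar amounts. Shares of cells with a UMI are given after each cell was thinned to 2000 UMIs, a depth that every cell reached. Intervals are exact 95% intervals (Poisson for levels, Clopper-Pearson for shares) and cover counting error only. Libraries shared 9, 10 and 13 cell barcodes between E60 and E90, E60 and E120, and E90 and E120. No cell was removed as a doublet, and E90 clusters of every type had UMIs of the 3 genes, as described below. Cells were clustered without the proteoglycan genes, and values are given per cluster within a library for clusters of at least 40 cells. Dermal-like covers clusters whose markers were those of dermal fibroblasts, of dermal condensate or papilla, or of tendon or cartilage.

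All 3 genes were highest in the E60 library. In the E60, E90 and E120 libraries DCN stood at 4323 CPM (interval 4307 to 4339), 1216 CPM (1204 to 1229) and 377 CPM (373 to 381). LUM had 3337 CPM (interval 3323 to 3351), then 512 (504 to 521) and then 2.72 (2.40 to 3.08). For OGN the levels were 997 CPM (989.7 to 1005), 730.1 CPM (720.5 to 739.8) and 3.49 CPM (3.12 to 3.89). Of the 3, DCN alone kept a high level in the follicle library, with 35212 UMIs against 254 of LUM and 326 of OGN. The log2 ratio of CPM + 1 from E60 to E90 was -1.83 for DCN, -2.70 for LUM and -0.45 for OGN, and from E90 to E120 it was -1.69, -7.11 and -7.35. Dermal-like clusters made up 88.2% of E60 cells, 7.20% of E90 cells and 3.03% of E120 cells. These ratios do not separate the make-up of a library from the level in its cells. DCN and LUM were at least 2-fold lower at E90 than at E60, as were 8.08% of the 6278 genes with at least 10 CPM in either library, and all 3 were at least 2-fold lower at E120 than at E90, as were 24.2% of 6357 such genes, beside 9.99% at least 2-fold higher. Nothing is read from these counts, because the genes were chosen on them.

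**Figure D1:**
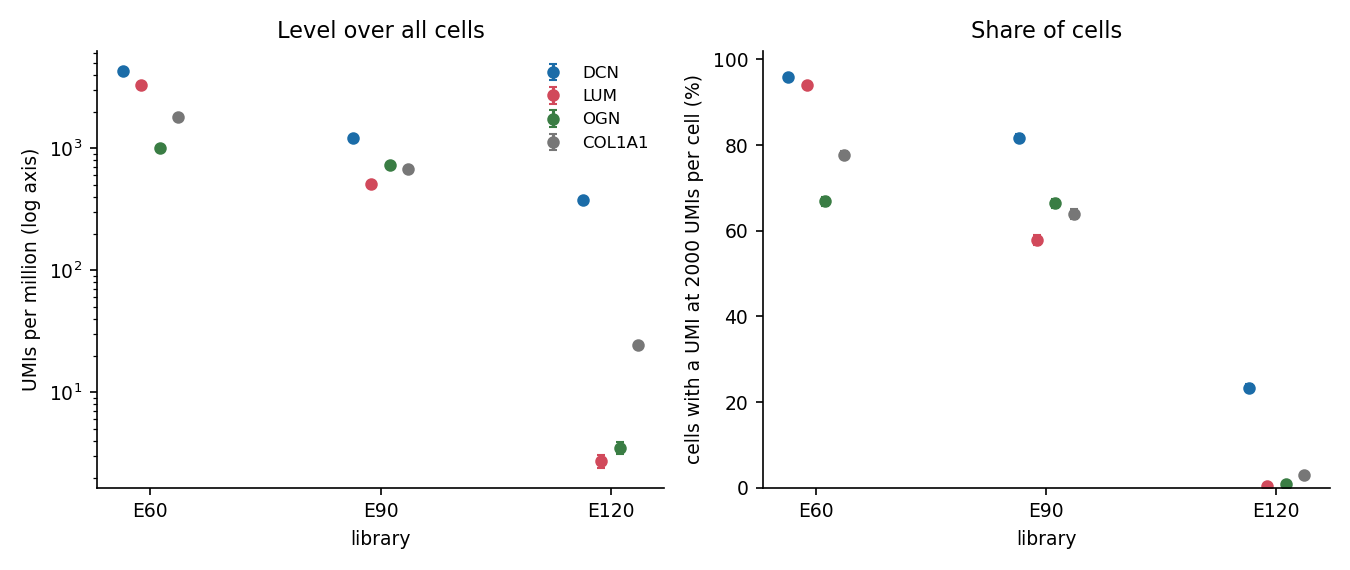
Level in CPM over all cells (left, log axis) and share of cells with a UMI after thinning to 2000 UMIs per cell (right) of DCN, LUM, OGN and COL1A1 in the E60, E90 and E120 libraries, 1 library per stage, with exact 95% intervals. All 4 genes are lower at E120 than at E60, and DCN at 377 CPM lies above COL1A1 at 24.5 CPM and above LUM and OGN at 2.72 and 3.49 CPM.

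Ratios between the genes also differed between libraries. There were 1.30 DCN UMIs per LUM UMI at E60, 2.37 at E90 and 139 at E120. Per OGN UMI there were 4.33, 1.67 and 108 DCN UMIs. Against COL1A1, the main fibrillar collagen chain of dermis, DCN stood at 2.39, 1.81 and 15.4. OGN thus exceeded LUM in the E90 library, whereas LUM exceeded OGN at E60.

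Detection of all 3 together was most frequent at E60. At 2000 UMIs per cell, 63.5% of E60 cells (62.3 to 64.6) had DCN, LUM and OGN together, another 28.4% had DCN and LUM without OGN, and 1.61% had DCN alone. These shares move with depth: OGN was in 66.8% of E60 cells at 2000 UMIs, in 49.9% when cells were thinned further and in 89.2% without thinning. At E90 the cells with all 3 made up 35.4% (34.3 to 36.5), those with DCN and OGN without LUM 21.3%, and 759 of 6931 cells had DCN alone. The order was turned round at E120, where 1562 of 6896 cells, or 22.7% (21.7 to 23.7), had DCN alone and 15 cells, or 0.218%, had all 3. Of the E120 cells with DCN, 1.31% also had LUM and 2.31% also had OGN. Conversely, 77.8% of the 27 E120 cells with LUM and 56.9% of the 65 with OGN also had DCN, against 23.1% and 23.0% of the E120 cells without them. The few LUM or OGN cells of E120 were therefore mostly DCN cells, but the DCN cells were seldom LUM or OGN cells.

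In the E60 skin, every dermal-like cluster carried the 3 genes, at levels that differed by more than counting error. The highest were in cluster 10, a dermal-like cluster of 498 cells led by SEMA3C, SMOC2 and MFAP5 (MFAP5 is a microfibril protein of fibroblasts), with DCN at 10849 CPM, LUM at 10613 CPM and OGN at 3596 CPM. COL1A1 was also highest there, at 6598 CPM. An unnamed cluster 27, led by ALDH1A1, CADM3 and ACTA2, followed with 8491, 8070 and 2809 CPM of DCN, LUM and OGN. Cluster 1, the most numerous with 2472 cells, had 4600 CPM of DCN, 2757 of LUM and 931 of OGN. DCN was at 2692 CPM in the mural-like cluster 23, below LUM at 3526 CPM, and this was the lowest DCN to LUM ratio of the 16 E60 clusters, at 0.764.

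From one mesenchymal cluster to the next, OGN kept less in step with DCN than LUM did. Among the dermal-like clusters DCN per LUM ran from 0.830 to 2.08, and DCN per OGN from 2.48 to 17.9. In cluster 11, led by the tendon and cartilage markers THBS4, CYTL1, COL2A1 and TNMD with no dermal fibroblast marker among its 10 leading genes, DCN was at 5658 CPM and LUM at 2725 CPM, so that DCN per LUM reached 2.08, the highest of E60. OGN was at 2279 CPM in cluster 11, above its level in the main dermal-like cluster 1. In cluster 4, led by DKK1 (a secreted WNT inhibitor) and CXCL14, LUM at 3400 CPM was above DCN at 3182 CPM, while OGN was at 526 CPM. OGN spread most: among the 16 E60 clusters it ran from 67.9 to 3596 CPM, 52.9 times, beside 34.4 times for DCN and 33.2 for LUM. The lowest level of each was in the myeloid-like cluster 32. Among dermal-like clusters OGN ran from 156 to 3596 CPM, DCN from 2279.6 to 10849 and LUM from 2127 to 10613. Over the 16 clusters DCN per OGN ran from 2.39 in the mural-like cluster to 17.9 in cluster 18. That cluster, led by the mitotic genes CENPF, NEK2 and CCNB2, had 2799 CPM of DCN and 2127 of LUM but 156 of OGN. Cluster 33, also led by mitotic genes (ASPM, CENPE, CENPF and TOP2A), went the other way, with OGN at 1175 CPM.

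**Figure D2:**
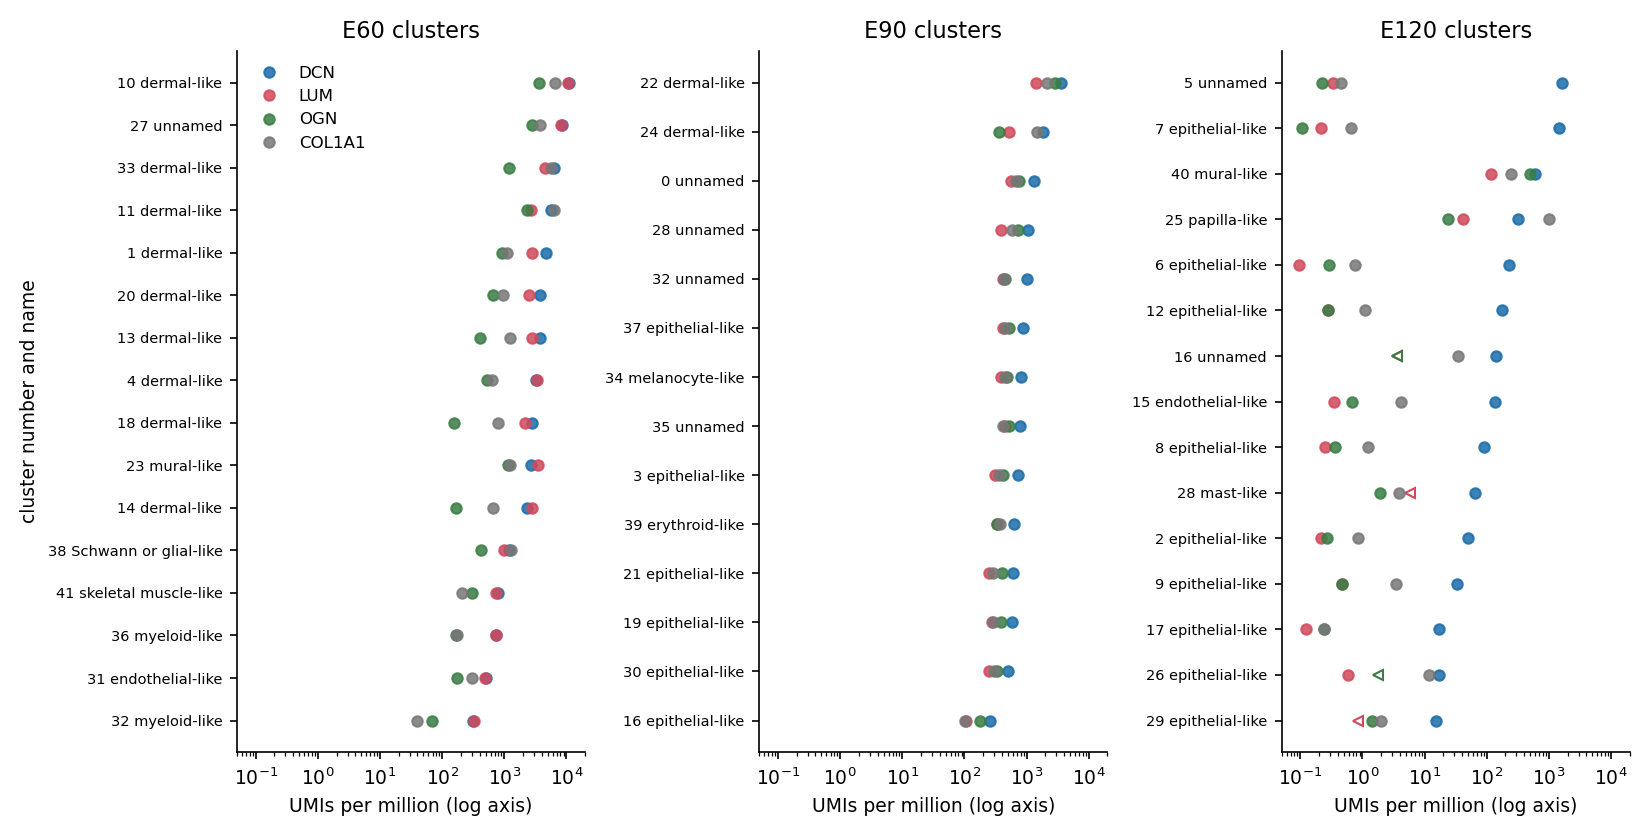
Level of DCN, LUM, OGN and COL1A1 (CPM, log axis) in each cluster of at least 40 cells, by library, ordered by DCN; open triangles mark a gene with 0 UMIs, drawn at the level of 3 UMIs. Each E60 and E90 cluster has all 4 genes, OGN as low as 67.9 CPM at E60, whereas in the E120 clusters 5 and 7 DCN lies at 1615 and 1434 CPM and the other 3 below 1 CPM.

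The 6044 dermal-like E60 cells were also split by single genes, counted at 2000 UMIs per cell. OGN was at 448 CPM (436 to 461) in the 965 cells with TOP2A, a DNA topoisomerase of dividing cells, and at 1142 CPM (1132 to 1152) in the 5079 without, a 2.55-fold difference. DCN was at 3657 against 4791 CPM and LUM at 2818 against 3560.2 CPM in the same cells, 1.31 and 1.26 times lower. The cells with TOP2A had a median of 11516 UMIs and those without 8227. Cluster 11 is among the 6044 cells, and without it OGN was at 429 against 1026 CPM, 2.39 times. Most of the OGN difference lay between clusters: inside the 5 dermal-like clusters with at least 20 cells on both sides, OGN without TOP2A was 0.962 to 1.63 times its level with TOP2A. The split on CENPF, a kinetochore protein of mitosis, gave 410.2 against 1131 CPM of OGN, and 1.17 to 2.10 times inside 4 clusters. Cells with DKK1 had less OGN too, 464 against 1071 CPM, and inside 4 clusters the level without DKK1 was 1.01 to 1.94 times that with it, with 469.98 and 561 CPM in cluster 4, which DKK1 leads. Cells with SMOC2 had more of all 3: 2264 against 710.2 CPM of OGN, 7379.9 against 3911 CPM of DCN and 6066 against 2797 CPM of LUM. Inside 7 clusters that split went both ways for OGN: the level without SMOC2 was 0.366 times that with it in cluster 13 and 1.65 times in cluster 14. These 4 splitting genes were chosen after their clusters had been seen.

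**Figure D3:**
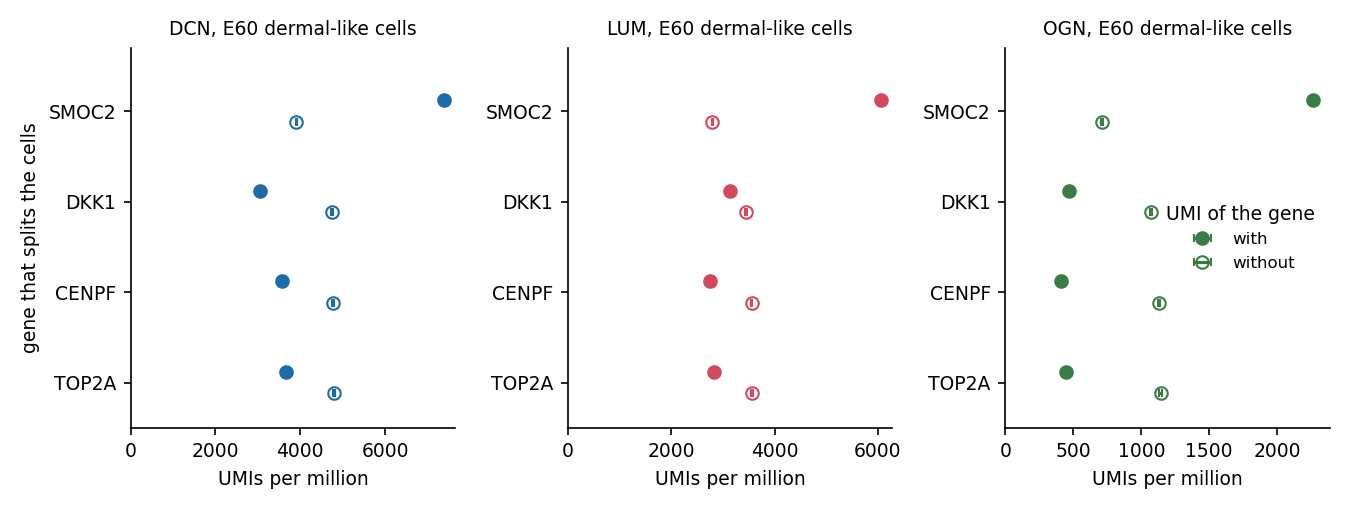
Level of DCN, LUM and OGN (CPM, linear axes from 0) in the 6044 dermal-like E60 cells, split by a UMI, at 2000 UMIs per cell, of SMOC2, DKK1, CENPF or TOP2A (filled, with; open, without), with exact Poisson 95% intervals. OGN lies at 448 CPM with TOP2A and 1142 CPM without, a gap of 2.55 times that is at most 1.63 times inside single clusters.

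Outside connective tissue, E60 clusters also had UMIs of all 3. The endothelial-like cluster, a cell type not known as a main source, had DCN at 501 CPM, LUM at 484 CPM and OGN at 174 CPM, and 31.7% of its cells had DCN at 2000 UMIs (median depth 16246 UMIs, against 8549 in dermal-like cells, of which 99.3% had DCN). LUM was in 38.8% and OGN in 18.0% of the endothelial-like cells. The myeloid-like clusters had 745 and 316 CPM of DCN. Levels were higher in the Schwann or glial-like cluster 38, with 1188 CPM of DCN, 982 of LUM and 1276 of COL1A1. The skeletal muscle-like cluster 41 had 800 CPM of DCN and 730 of LUM. DCN was in 42.4% of the cells of cluster 38 and 65.2% of those of cluster 41 at 2000 UMIs. DCN per LUM lay between 0.986 and 1.21 in the Schwann, muscle, myeloid and endothelial-like clusters. Levels of this size at E60 are not read as expression by those cells, and whether those cells express the genes was not tested.

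At E90 the 3 genes were found in every cluster. Of 14 clusters, 12 were not dermal-like, and among them DCN ran from 259 to 1294 CPM, LUM from 106 to 567 CPM and OGN from 177 to 742 CPM. The ratios hardly moved: DCN per LUM lay between 1.73 and 2.70, and DCN per COL1A1 between 1.65 and 2.51, from epithelial-like to erythroid-like clusters. Of the erythroid-like cells 80.0% had DCN at 2000 UMIs, and of the epithelial-like cells 66.4%, at median depths of 3745.5 and 3961 UMIs. The most numerous E90 cluster, 3989 cells led by mitochondrial genes and left unnamed, had 1294 CPM of DCN, 567 of LUM and 742 of OGN. Its mitochondrial share was 13.2%, against 6.16% in the dermal-like cluster 22 described next. Whether these 12 clusters express the genes cannot be told from such values, and the E90 library total holds them all.

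Both E90 dermal-like clusters stood above that range in DCN, and cluster 22 in LUM and OGN too. Cluster 22, 275 cells led by COCH, FNDC1, PENK and PDGFRA (the platelet-derived growth factor receptor of fibroblasts), had DCN at 3584 CPM, LUM at 1391 CPM and OGN at 2862 CPM, and OGN was among its 10 leading genes. Cluster 24, 224 cells led by BMP3, SPON1 and SPARCL1, had DCN at 1806 CPM, LUM at 527 CPM and OGN at 359.8 CPM. Its LUM and OGN were below those of the 3989-cell cluster and inside the range of the non-dermal clusters, so only its DCN lay above that range. The unnamed 3989-cell cluster alone sets the top of that range. The next highest levels were 455 CPM of LUM, below cluster 24, and 722 CPM of OGN, above it. OGN was the member in which clusters 22 and 24 differed most, and COL1A1 differed less than any of the 3, at 2153 against 1462 CPM.

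The dermal-like cells of E60 and E90 fell into different clusters, so they are compared cluster by cluster and not as a whole. OGN in the E90 cluster 22, at 2862 CPM, was above 8 of the 9 dermal-like E60 clusters but below cluster 10 at 3596 CPM, and OGN in the E90 cluster 24, at 359.8 CPM, was below 7 of the 9. LUM in both E90 clusters, at 1391 and 527 CPM, was below all 9 of E60, the lowest of which was cluster 18 at 2127 CPM. DCN in cluster 22, at 3584 CPM, lay within the E60 range of 2279.6 to 10849 CPM, and in cluster 24, at 1806 CPM, under it. COL1A1 in both lay within its E60 range of 634 to 6598 CPM. A pooled ratio depended on the clusters that entered it: leaving out E60 cluster 11, the log2 ratio of OGN from E60 to E90 was 1.08, and it was -1.32 when E90 cluster 22 was left out too. In E120 the 209 papilla-like cells had DCN at 313 CPM, LUM at 41.1 CPM and OGN at 24.1 CPM beside 1004 CPM of COL1A1, and no other dermal-like cluster reached 40 cells there.

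Within the E120 library LUM and OGN were found in few cells. LUM was seen in 56 cells and 10 of these held 70.1% of its UMIs. OGN was seen in 101 cells with 32.8% of its UMIs in 10 of them, whereas DCN was seen in 3063 cells with 4.37% in 10. Of the LUM UMIs 55.9%, and of the OGN UMIs 38.0%, came from 84 cells outside the clusters of at least 40 cells. Among these, 6 cells that had clustered with the dermal-like cells of E60 cluster 10 or E90 cluster 22 had DCN at 5860.2 CPM, LUM at 4385 CPM and OGN at 2131 CPM, and alone held 42.1% of the E120 LUM UMIs. The mural-like cluster 40, 49 cells led by ABCC9, RGS5 and KCNJ8 of pericytes, was the OGN-rich cluster of the stage, with 503 CPM of OGN beside 602 CPM of DCN and 117 CPM of LUM. It held 42.0% of the E120 OGN UMIs.

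Most DCN UMIs of E120 were in cells without COL1A1, as were most UMIs of all genes. The 6536 E120 cells with no COL1A1 UMI were 94.8% of its cells, with 90393292 of its 93403291 UMIs, and held 97.4% of the DCN UMIs. They had DCN at 379 CPM (375 to 383), against 306 CPM (287 to 326) in the 360 cells with COL1A1. At 2000 UMIs per cell, DCN was in 22.9% (21.9 to 23.9) of the cells without COL1A1. Of those with COL1A1, 30.3% (25.6 to 35.3) had DCN. LUM was at 0.420 CPM (38 UMIs) against 71.8 CPM, and OGN at 0.752 CPM (68 UMIs) against 85.7 CPM. The log2 ratio of CPM + 1, without over with COL1A1, was 0.31 for DCN, -5.68 for LUM and -5.63 for OGN. The order of DCN between these groups is not firm: it was reversed, at -0.56, when each cell was thinned to 2000 UMIs before the split. The cells with COL1A1 were shallower (median 6003.5 UMIs against 13414.5).

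In E120 94.8% of all cells had no COL1A1 UMI, and 94.3% of the cells with any DCN UMI. The share was 96.7% of the 845 E120 cells with at least 10 DCN UMIs and 98.5% of the 529 with at least 20. In E60 and E90 4.03% and 16.7% of all cells had no COL1A1 UMI, and 0.979% and 2.84% of the cells with at least 10 DCN UMIs. In E60 and E90 the cells rich in DCN lay below the share of all cells, and in E120 near or above it.

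**Figure D4:**
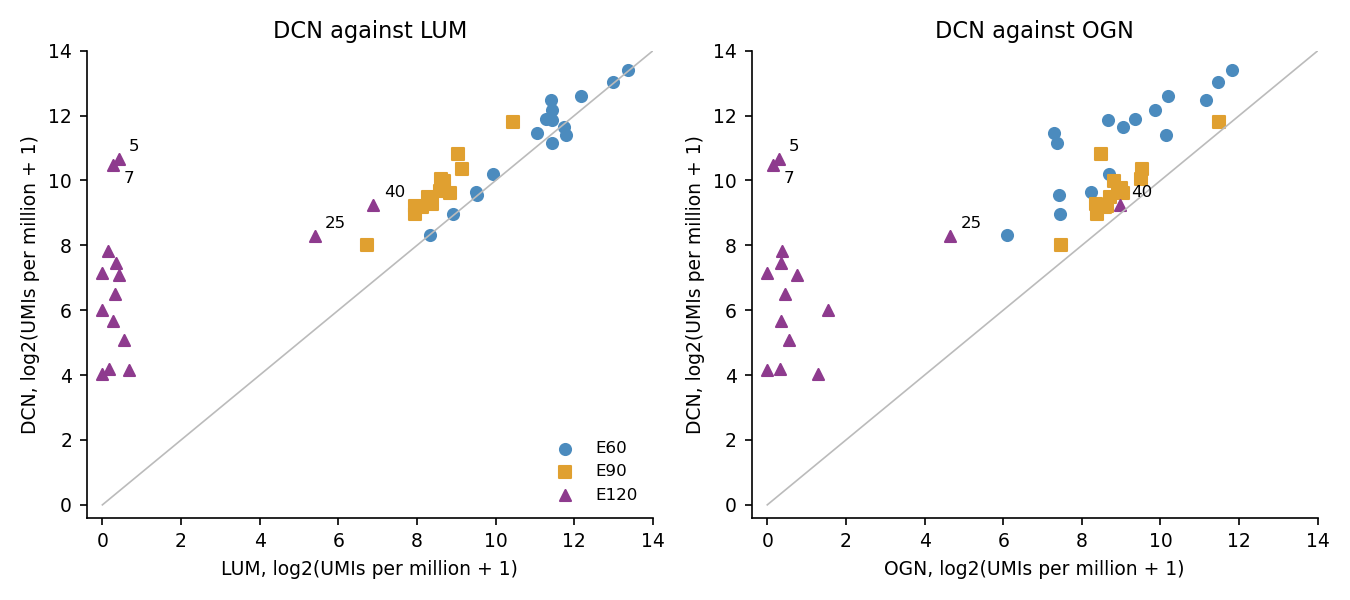
DCN against LUM (left) and against OGN (right) as log2(CPM + 1), 1 point per cluster of at least 40 cells, with E120 clusters 5, 7, 25 and 40 numbered and a grey line of equal values. E60 and E90 points with more DCN mostly have more LUM and OGN, while the E120 points other than clusters 25 and 40 lie at LUM and OGN values below 2 CPM with DCN from 15.4 to 1615 CPM.

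Of the 15 E120 clusters, 2 held most of this DCN. Cluster 5, 888 cells, had DCN at 1615 CPM (67.0% of cells at 2000 UMIs), and cluster 7, 647 cells led by TOP2A and CENPF, had 1434 CPM (60.3% of cells). Together they were 22.3% of E120 cells and held 79.2% of its DCN UMIs, and among their 18311152 UMIs were 5 of LUM, 3 of OGN and 10 of COL1A1. DCN led cluster 5 by fold within the library although it had no part in the clustering. The next clusters by DCN were the mural-like cluster 40 at 602 CPM, the papilla-like cluster 25 at 313 CPM and the epithelial-like clusters 6 and 12 at 224 and 175 CPM. At the other end, the cluster led by the hair keratin KRT84 had 15.4 CPM and the one led by the inner root sheath keratins KRT27 and KRT71 had 32.9 CPM.

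The level differed between cells within these clusters too. In clusters 5 and 7 the median cell had 7 DCN UMIs, the highest had 143 and 197, and 136 cells of cluster 5 had none. In the endothelial-like cluster 15, a type not known as a main source of DCN, 5.99% of cells had DCN at 2000 UMIs (median depth 6427 UMIs, against 10326 in cluster 5), and 18 of its 367 cells held 87.8% of its DCN UMIs. Of the KRT84-led cells, at a median of 19793.5 UMIs, 4.65% had DCN. The shares of clusters 5 and 7 lay far above both.

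By their markers clusters 5 and 7 were low in fibroblast genes, and held some papilla and most epithelial ones above the endothelial-like level. The dermal fibroblast markers, of which 7 of 10 were in the table, summed to 56.2 and 83.9 CPM in clusters 5 and 7, nearly all of it FBLN1 at 51.8 and 79.0 CPM. The sum was 4216 CPM in the papilla-like cluster 25 and 66.4 CPM in the endothelial-like cluster 15, where FBLN1 was at 55.4 CPM. COL6A3 and MFAP5 were at 0 in cluster 5 against 43.2 and 15.6 CPM in cluster 25, while TWIST2 was at 0 in all 4 clusters. Of the papilla markers, 3 were above the endothelial-like level: WIF1 at 182 and 124 CPM against 18.2, CRABP1 at 301 and 259 CPM against 41.3, and BMP4, a bone morphogenetic protein, at 93.6 and 87.5 CPM against 18.6. Cluster 25 had 1356 CPM of WIF1 and 2637 of CRABP1 but 19.9 of BMP4. The papilla markers SOX2, RSPO2, RSPO3 and HHIP were below 1 CPM in clusters 5 and 7, against 364, 1186, 1129 and 311 CPM in cluster 25. The whole list summed to 582 and 475 CPM, against 7223 CPM in cluster 25 and 1031 CPM in cluster 15, where SOX18 made up 850.2.

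The epithelial markers summed to 554 and 484 CPM in clusters 5 and 7, against 191 CPM in cluster 15 and 177 in cluster 25. All 10 had UMIs in each of these 4 clusters. KRT5 was at 51.8 and 42.3 CPM against 3.79 in cluster 15, TP63 at 13.1 and 13.2 against 1.38, and EPCAM at 37.9 and 38.1 against 8.95, while CDH1 did not stand apart at 4.46 and 3.86 against 3.79. Among the follicle transcription factors, HOXC13 was at 329 and 262 CPM and MSX1 at 377 and 475 CPM, above 88.1 and 86.0 CPM in endothelial-like cells. The hair keratin KRT35 was lower than there, at 465 and 414 CPM, below 1452 CPM. Levels of the other listed hair and root sheath markers in these clusters are not given here. Cluster 5 is led by DCN, the hedgehog ligand SHH, the metallothionein MT3, the chemokines CXCL14 and CCL20, RBBP8, the KIT ligand KITLG, the papilla marker WIF1 and PDGFA. It was left unnamed because that marker of another class stood among its leading genes, its closest class being epithelial. The naming rule asked for at least 3 markers above set levels. It counted 3 of the 10 epithelial markers in cluster 5 and 4 of the 10 in cluster 7, which was named epithelial-like. Whether RNA from other cells has a part in these values was not tested.

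The E120 cells without COL1A1 were also split by single genes, counted at 2000 UMIs per cell. Of the 281 with a UMI of SHH, which matrix cells at the base of the follicle are known to make, 80.8% (75.7 to 85.2) had DCN at 2000 UMIs, against 20.3% (19.3 to 21.3) of the 6255 without. Their DCN levels were 3410.3 and 261 CPM, a log2 ratio of 3.70, at median depths of 11486 and 13556 UMIs. WIF1, a secreted WNT inhibitor, gave 77.6% against 19.0%, PDGFA 46.7% against 19.2%, and CXCL14 45.5% against 12.5%. DCN was in fewer of the cells with a UMI of a shaft or root sheath keratin: 19.9% with KRT35 against 29.2% without, 18.8% against 30.2% for KRT85, and 18.1% against 26.9% for KRT71. Of the 6536 cells, 4403 had a UMI of KRT35, 4194 of KRT85 and 2993 of KRT71. KRT35 was also found in endothelial-like cells, as given above, so these splits do not set shaft or sheath cells apart from others. With and without HOXC13, a factor of the hair lineage, the share was 22.9%, while the DCN levels were 283 and 453 CPM. PECAM1, an endothelial gene, gave 6.57% against 23.6%. The 12 splitting genes were chosen after the leading genes had been seen, and SHH, WIF1, PDGFA and CXCL14 are themselves leading genes of cluster 5. Of the cells with SHH 211 of 281, or 75.1%, lay in clusters 5 and 7, as did 76.2% of those with WIF1, so these splits largely restate the clusters. Outside clusters 5 and 7, DCN was in 37.1% (25.9 to 49.5) of 70 cells with SHH and 9.92% (9.10 to 10.8) of 4939 without. Inside them it was in 95.3% of 211 cells with SHH and 59.2% of 1316 without.

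**Figure D5:**
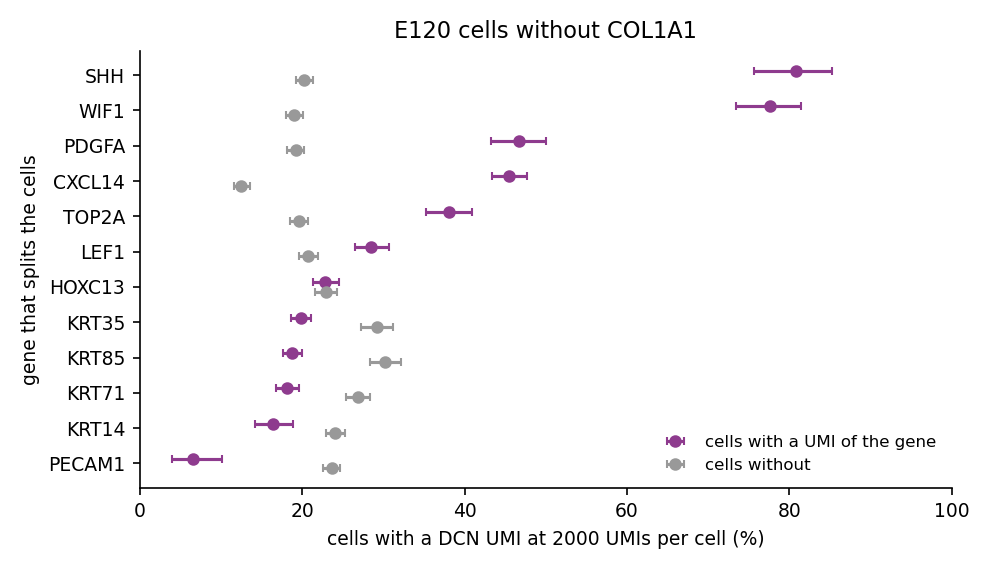
Share of E120 cells without COL1A1 that had a DCN UMI at 2000 UMIs per cell, for cells with and without a UMI of each of 12 genes, with exact 95% intervals. SHH stands at 80.8% against 20.3%, and PECAM1 at 6.57% against 23.6%.

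The same split was made over all cells of E120 and E90. The 287 E120 cells with SHH had DCN at 3372 CPM, 0 LUM UMIs of 3429440 (3 UMIs would be 0.875 CPM) and 4 OGN UMIs. At E90 the 229 cells with SHH had DCN at 1088 CPM (1024 to 1155), LUM at 454 CPM and OGN at 634 CPM, near the 1221, 514 and 733 CPM of E90 cells without SHH and inside the range of the 12 non-dermal clusters. DCN in E90 cells with SHH was therefore not detectable above that range. The top of the range is the unnamed 3989-cell cluster, at 1294 CPM of DCN. The next of the 12 clusters had 1057 CPM (940 to 1184), within the interval of the cells with SHH.

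Other members of the family were mostly low. Of 15 other small leucine-rich proteoglycans 12 were in the table and 4 reached 10 CPM in E60 or E90. Of these, 2 were at least 2-fold lower at E90 than at E60, 1 was higher, and the median log2 ratio was -1.66 against 0.13 over all genes tested, of which 21.3% were higher and 8.08% lower. From E90 to E120, 3 of the 4 were at least 2-fold lower, as were 24.2% of all genes tested, and the median was -3.77 against -0.24. ASPN, the asporin that limits TGF-beta signalling, was at 305, 191 and 3.08 CPM in the 3 libraries and highest, at 2344 CPM, in E60 cluster 11. FMOD, fibromodulin, was at 109, 16.6 and 1.88 CPM and also highest there. ECM2 was at 36.2, 107 and 2.54 CPM and highest in the E90 dermal-like cluster 22. BGN, biglycan, the closest relative of decorin, was at 147, 15.3 and 17.5 CPM and highest in the E120 mural-like cluster 40, at 1178 CPM. None followed DCN into clusters 5 and 7, where BGN was at 8.19, ASPN at 0.546 and FMOD and ECM2 at 0.164 CPM. KERA, which lies beside LUM, had 339, 5 and 0 UMIs in the 3 libraries.

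Partners of these proteins in the matrix were also listed. Of 14 fibrillar collagens and matrix partners 8 were in the table and all 8 were at least 2-fold lower at E120 than at E90, where 24.2% of all genes were (median -4.14, against -0.24 over all genes). From E60 to E90 2 of the 8 were higher and 3 lower, beside 21.3% and 8.08% of all genes tested. In clusters 5 and 7, against other E120 cells without COL1A1, 1 of them reached 10 CPM, COL14A1, a fibril-associated collagen, at 12.8 against 5.64 CPM. That contrast called 9.63% of 5419 genes higher and 7.03% lower. Of 24 enzymes that build or modify the sugar chains of proteoglycans 18 were in the table, and 5 were tested from E60 to E90, of which CHPF2, DSEL and UST were at least 2-fold lower and none higher (median -1.02 against 0.13 over all genes, of which 8.08% were lower). DSEL and UST, both acting on dermatan or chondroitin sulfate, were at 54.7 and 58.6 CPM at E60, 10.7 and 28.4 CPM at E90 and 1.13 and 5.71 CPM at E120. CHST11, a chondroitin sulfotransferase, was below the level tested but stood at 9.78 CPM in clusters 5 and 7 against 2.18 CPM in the other cells. Of 12 receptors and ligands known to bind decorin 11 were in the table and 7 were tested from E60 to E90, of which EGFR, TGFB2 and CCN2 were at least 2-fold higher and none lower (median 0.90 against 0.13 over all genes, of which 21.3% were higher). From E90 to E120 4 of 7, LRP1, TGFB2, TGFB3 and CCN2, were at least 2-fold lower and none higher (median -1.49 against -0.24). Of the list, 6 were tested between clusters 5 and 7 and the other cells. CCN2, a matricellular growth factor, was the 1 that was 2-fold higher, at 70.6 against 27.9 CPM, and KDR, an endothelial receptor, the 1 that was lower. EGFR was at 40.6 against 22.8 CPM and TGFB2 at 12.8 against 7.97 CPM.

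Likeness of pattern was measured by Pearson's r of log2(CPM + 1) over the 41 clusters of at least 50 cells, which share libraries, depth and background RNA, among 2566 genes. LUM and OGN were alike, with r = 0.965, and each was near the collagen gene COL1A1, at 0.951 and 0.944. AKAP12 and TNFAIP6 were nearest to LUM, both at 0.980, followed by LSAMP, PCDH18 and LRRC17, and DCLK1 was nearest to OGN at 0.968, followed by LRRC17, CILP, AKAP12 and LUM. DCN was less like both, with r = 0.850 to LUM and 0.802 to OGN, and its nearest genes were FBLN1 at 0.891, ADAMTS2, CRABP1, TPST1 and ZNF428. Over the 14 E60 clusters alone DCN and LUM were alike (r = 0.949) and DCN and OGN less so (0.811). Over the 14 E120 clusters DCN was nearest to FGFR2 at 0.871, PRDX4, MT2A, BCNT and MT3. There r of DCN was 0.210 to LUM, 0.0859 to OGN and 0.0462 to COL1A1. The mural-like cluster 40, with DCN at 602 and OGN at 503 CPM, had 49 cells and was not among the 14. Apart from the papilla-like cluster 25, each of the 14 had at most 5 UMIs of LUM and at most 5 of OGN.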

How the data were processed

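One table of 20676 cells and 16739 genes was used, with 1 library per stage. Reads were processed with Cell Ranger 3.0.2, per the submitters' processing notes; the genome build is not given in the sources used here. The values the authors deposited are natural log values, ln(1 + UMIs per 10000 of the cell), and whole UMIs were recovered from them in every cell within a tolerance of 0.01. The plan had assumed counts; sums of recovered UMIs were used, and with 1 library a stage no test was made. The genes and lists were chosen with earlier results of these data known. Cells were clustered without 15 proteoglycan genes on 2000 variable genes and 30 principal components (scipy 1.17.1), with 20 neighbours (scikit-learn 1.9.0) and Leiden communities at resolution 1 (leidenalg 0.10.2, igraph 0.11.9), and clusters were named from listed markers by a scoring rule set after the data were seen. E60 cluster 11, led by tendon and cartilage markers, was left out of pooled dermal-like ratios between E60 and E90, also after the data were seen. It was kept in the splits of dermal-like E60 cells by single genes. Called means a 2-fold difference of CPM + 1 among genes with at least 10 CPM on either side. The rule for named genes was the 3 members, listed genes with at least 50 CPM in a library, and the 5 genes most like a member by Pearson's r; CHPF2, CHST11, EGFR, KDR, KERA, LRP1, TGFB3, markers and leading or splitting genes of clusters were named after their values were seen. Gene order is from RefSeq (goat assembly ARS1.2). Scripts were tested on simulated data. Exact intervals are from scipy 1.17.1. Alternatives changed the pseudocount, scaling, cell weights, cell filter, doublets, clustering and COL1A1 split.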

Additional observations from a re-analysis of the deposited data

How the results depend on the processing

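All values here are log2 ratios in the order DCN, LUM and OGN where 3 are given. With each cell weighing the same, E90 over E60 was -1.90 for DCN, -2.77 for LUM and -0.58 for OGN, and E120 over E90 -1.47, -5.86 and -6.16. With median-of-ratios size factors these were -2.35, -3.22 and -0.97, and -1.21, -6.67 and -6.90; that scaling moved the median gene from 0.13 to -0.37 and from -0.24 to 0.21. Without mitochondrial and haemoglobin genes in the total, E90 over E60 was -1.71, -2.59 and -0.33, and DCN E120 over E90 -1.79. A filter on genes per cell and mitochondrial share, which kept 6801, 2756 and 5902 cells, gave -1.73, -2.66 and -0.22, and for E120 over E90 -1.77 for DCN and -7.55 for OGN. With the top 6% by doublet score removed from each library, DCN was at -1.80 from E60 to E90 and LUM at -7.46 from E90 to E120. With a pseudocount of 10 CPM, E120 over E90 was -1.66, -5.36 and -5.78, and with 0.1 CPM LUM was at -7.51 and OGN at -7.67.

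For E120 cells without over with COL1A1, DCN was at 0.0192 with each cell weighing the same, 0.47 without doublets and 0.0559 when split on COL1A1 and COL1A2, and reversed to -0.56 when thinned first. LUM was at -7.11 and -2.97 with pseudocounts of 0.1 and 10 CPM, -4.97 when split on COL1A1 and COL1A2 and -6.21 when thinned first, and OGN at -6.65, -3.15, -5.01 and -4.74. COL3A1 was planned for that split and is not in the table under its symbol. The SHH split was at 3.66 with a pseudocount of 10 CPM, 3.52 with each cell weighing the same and 3.77 without doublets; its alternatives were chosen after seeing the data. Of 42 alternatives to the stage ratios 14 stayed within the counting interval and 28 moved, none reversing. The causes were not tested. Of 36 alternatives to the shares of cells 20 moved, with DCN at E120 between 17.4% and 44.4%. The share of a gene's UMIs in dermal-like clusters had 27 alternatives, of which 13 moved. At E60 it was 91.3% for DCN, 73.1% at Leiden resolution 2 and 96.7% at resolution 0.5. For OGN it was 86.9%, 71.9% and 94.6%. The dermal-like set of E60 thus depends on the clustering. At E120 the DCN share stayed at 1.25%.

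The pooled ratio of dermal-like cells from E60 to E90, with its alternatives chosen after seeing the data, was -0.63 for DCN, -1.71 for LUM, 1.08 for OGN and 0.29 for COL1A1 without E60 cluster 11. With cluster 11, OGN was at 0.92 and COL1A1 at -0.00385. Without E60 clusters 10 and 11 the 4 ratios were -0.44, -1.43, 1.51 and 0.77. Without E60 cluster 11 and E90 cluster 24 they were -0.32, -1.32, 1.67 and 0.48, and without E60 cluster 11 and E90 cluster 22 they were -1.31, -2.72, -1.32 and -0.0758. OGN and COL1A1 thus reversed. No paired analysis was possible because each stage is 1 library. E120 was the deepest library, and its LUM and OGN rest on 254 and 326 UMIs, which sets their counting intervals.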
